A study of Homo sapiens with 6 samples.

Results

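The genes described here are the nuclear genes for the last steps of the mitochondrial respiratory chain: 9 subunits of complex III, 10 subunits of complex IV, 15 subunits of ATP synthase, and CYCS, which encodes cytochrome c. These 35 genes were chosen by symbol or older alias from the 19775 genes named on the array, and each was read from the brightest probe set, over all 6 arrays, that names only that gene. Of the 35 genes, 33 had such a probe set and all 33 were tested, among 13781 tested genes. UQCRFS1, the Rieske iron-sulfur protein of complex III, had no probe set named here, and UQCRH, the hinge protein, only 1 that also names UQCRHL, so neither has a value. The choice of probe set used names and brightness and no difference between the clones. The genes themselves were chosen with earlier results of these data known.

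The arrays hold total RNA of Hep3B, a human hepatocellular carcinoma cell line. The 3 tested arrays, A, B and C, are of clone D20, which carries the plasmid siSDHB, made to silence SDHB stably. The 3 control arrays, also A, B and C, are of clone 2 with the plasmid pU6, called pU6 clone 2 below. SDHB is the iron-sulfur subunit of succinate dehydrogenase, which is complex II of the chain. All cells were grown in the same medium, with pyruvate and the selection drug G418. Each group is a single clone, so a difference between the clones that arose on its own and one that followed silencing cannot be told apart. The level of SDHB is not analysed here, so the degree of silencing was not checked. The labels do not say that the 3 arrays of a clone came from separate cultures, and the p-values then measure only the spread between arrays, which may be technical.

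Complex III takes electrons from ubiquinol, which complexes I and II supply, and hands them to cytochrome c. Complex IV, cytochrome c oxidase, passes the electrons on to oxygen, and both complexes pump protons across the inner membrane. ATP synthase lets the protons flow back through a ring of c subunits, whose rotation turns a central stalk inside a catalytic head, while a peripheral stalk holds the head still. A few subunits of these complexes are encoded by mitochondrial DNA, and the rest, including all 35 genes here, by the nucleus.

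Promoters of such nuclear genes are known for matches to the motifs of NRF1, of ETS factors such as GABP, of YY1 and of SP1. The next 5 lines give the 110 bases before the annotated start and the first transcribed base of the genes whose transcripts fell furthest (UQCR10, ATP5MC1, COX8A) or rose (UQCRQ, ATP5F1C) in complex III, complex IV and ATP synthase. The sequences are RefSeq's, build GRCh38.p14, all on the plus strand, and capitals mark motif matches. They lie at chr22:29767259-29767369 for UQCR10, chr5:132866532-132866642 for UQCRQ, chr11:63974510-63974620 for COX8A, chr17:48892677-48892787 for ATP5MC1 and chr10:7788067-7788177 for ATP5F1C.
UQCR10: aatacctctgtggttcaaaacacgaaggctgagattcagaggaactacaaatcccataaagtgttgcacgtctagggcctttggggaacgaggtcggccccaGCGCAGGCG
UQCRQ: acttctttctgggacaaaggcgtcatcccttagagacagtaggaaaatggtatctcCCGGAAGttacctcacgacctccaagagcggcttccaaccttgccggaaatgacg
COX8A: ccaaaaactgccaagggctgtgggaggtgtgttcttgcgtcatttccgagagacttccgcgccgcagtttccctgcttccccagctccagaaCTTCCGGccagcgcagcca
ATP5MC1: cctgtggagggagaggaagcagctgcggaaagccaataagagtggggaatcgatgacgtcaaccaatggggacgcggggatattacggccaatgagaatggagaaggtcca
ATP5F1C: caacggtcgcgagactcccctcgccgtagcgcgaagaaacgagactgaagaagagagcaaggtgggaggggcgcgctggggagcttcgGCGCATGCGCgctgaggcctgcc

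The capitals in UQCR10 are an NRF1 match (searched as GCGCANGCG), those in UQCRQ an ETS match (CCGGAAG) and those in COX8A the same ETS letters on the other strand. ATP5F1C holds a pair of overlapping NRF1 matches, and the ATP5MC1 stretch holds none of the motifs searched. Both strands of the whole RefSeq windows, 250 bases before to 50 after a start, were searched for these 2 motifs, for YY1 (AANATGGCG) and for SP1 (GGGCGG). Of the 35 genes, 28 had a window, 33 windows in all. ETS letters occurred in 14 of the 33 windows, 42.4%, against 10.3% of all 35116 windows. NRF1 letters occurred in 30.3% of the windows against 7.52% of all, YY1 letters in 18.2% against 3.19%, and SP1 letters in 54.5% against 45.0%. A match of these letters is a description of the sequence and not a binding site. Genes that fell and genes that rose both had matches: NRF1 letters stood in the windows of UQCR10, ATP5MC2 and ATP5PO, which fell, and of ATP5F1C, which rose, and ETS letters in those of COX8A and ATP5PD, which fell, and of UQCRQ, which rose.

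The arrays within a clone correlated at 0.953 to 0.962 for D20 and 0.964 to 0.967 for pU6 clone 2, against 0.880 to 0.890 between the clones (Pearson r of log2 signals over the tested probe sets). The 3′ to 5′ signal ratio of ACTB, a measure of RNA integrity, was 1.40 to 1.68 on the D20 arrays and 1.42 to 1.90 on the pU6 clone 2 arrays. Of 13 tested hepatocyte and hepatocellular carcinoma markers 9 were lower and 2 higher in D20, or 69.2% and 15.4%, against 20.8% and 23.7% of all tested genes. AFP had a mean signal of 403.5 in D20 and 20569.5 in pU6 clone 2, whereas ALB had 43934.7 in D20 and 43677.7 in pU6 clone 2 and did not pass the test. Of markers of other cells, 6 of 10 fibroblast, 4 of 6 blood, 1 of 5 endothelial and 4 of 4 biliary ones were bright enough to test. In D20 1 fibroblast, 1 blood and 1 biliary marker were lower, and 1 fibroblast, 1 blood, 1 endothelial and 2 biliary markers were higher. Some of these differences were large. The higher fibroblast marker, COL1A1, had a mean signal of 3780.0 in D20 and 1.2 in pU6 clone 2. The higher blood marker, LAPTM5, had 612.1 in D20 and 74.7 in pU6 clone 2. The lower fibroblast marker, LUM, had 8.3 in D20 and 160.4 in pU6 clone 2. The part of these differences in the results below was not tested.

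Across the 33 tested genes, with the arrays scaled as deposited, 14 were lower in D20, 2 were higher and 17 did not pass the test (limma on log2 signals, Benjamini-Hochberg adjusted p under 0.05 over all tested probe sets). The excess of lower over higher genes depended on the scaling: with the arrays scaled on poly-A spike-in controls, 4 were lower and 6 higher. That scaling also moved all tested genes, of which 12.6% were then lower and 32.4% higher. As deposited, lower genes made up 42.4% of the 33, against 20.8% of all tested genes. Higher genes made up 6.06%, against 23.7% of all tested genes. These genes are among the brightest on the array, with a median signal of 11441, at percentile 97.7 of the tested genes. Among the 553 tested genes at least as bright as their first quartile, 33.3% were lower and 21.0% higher in D20. Their median log2 fold change was -0.18, against -0.07 for those bright genes and 0.04 for all tested genes. Signals are of whole extracts, in which fewer cells with a transcript and less RNA per cell cannot be told apart.

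The differences were small. The median size of the log2 fold change was 0.22 for these genes, against 0.26 for the 553 genes at least as bright as their first quartile and 0.44 for all tested genes. None passed a 2-fold difference, which 5.61% of those bright genes and 19.1% of all tested genes did. The 3 D20 arrays lay apart from the 3 pU6 clone 2 arrays for 21 of the 33 genes, including all 16 that passed the test, against 54.1% of all tested genes. Standard errors of the log2 fold changes lay between 0.07 and 0.14, except for the dim probe set of ATP5MF.

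**Figure D1:**
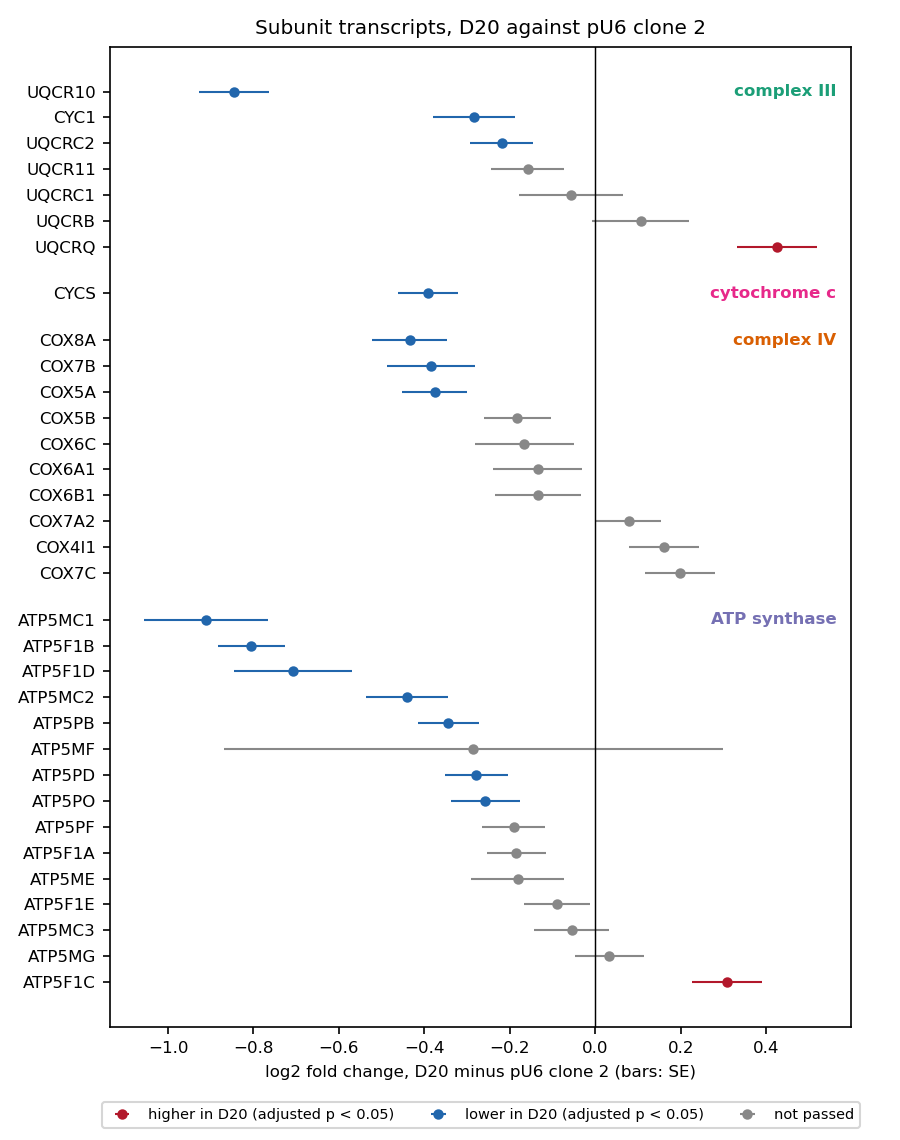
Log2 fold change, D20 minus pU6 clone 2, of each tested subunit gene, by complex (points: limma estimate; bars: standard error). Blue points passed the test as lower in D20 (14 genes), red points as higher (2 genes: UQCRQ and ATP5F1C), and grey points did not pass; ATP5MF has the widest bar, 0.58.

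In complex III, 3 of the 7 tested genes fell, 1 rose and 3 did not pass, and their median was -0.16 on the log2 scale. With poly-A spike-in scaling 1 was lower and 2 higher, with a median of 0.06. All tested genes then had 12.6% lower, 32.4% higher and a median of 0.24. As deposited, the lower share of complex III was 42.9% and the higher share 14.3%, against 20.8% and 23.7% of all tested genes. Among the 553 bright genes described above the shares were 33.3% and 21.0%. UQCR10, a small membrane subunit, had signals of 5224.1, 6044.5 and 5475.5 in D20, against 10103.2, 10172.2 and 9792.7 in pU6 clone 2. Every D20 array lay far below every pU6 clone 2 array. The log2 fold change was -0.85 ± 0.08 (SE, n = 3 arrays each, limma adjusted p = 3.8e-06), a fold of 0.56. Its further probe set gave -0.38 and did not pass (limma adjusted p = 0.077), so the size of the fall depends on the probe set.

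UQCRQ, another small membrane subunit, went the other way. It had signals of 6880.5, 7512.2 and 8183.0 in D20, against 5873.4, 5867.5 and 5049.3 in pU6 clone 2. All 3 D20 arrays were above all 3 pU6 clone 2 arrays, with a log2 fold change of 0.43 ± 0.09 (SE, n = 3 each, limma adjusted p = 0.0030). Within 1 complex, UQCR10 fell and UQCRQ rose.

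CYC1 encodes cytochrome c1, the haem protein that hands electrons to cytochrome c. It had signals of 7592.0, 7727.7 and 7088.8 in D20, against 8254.6, 10478.1 and 8681.9 in pU6 clone 2. The groups did not overlap, but pU6 clone 2 array B stood well above the other two control arrays. The log2 fold change of -0.28 (limma adjusted p = 0.034) did not pass under 8 of 19 alternative settings, among them leaving out that array, pU6 clone 2 array C or D20 array C. UQCRC2, a core protein on the matrix side, had 9007.5, 8869.9 and 9524.2 in D20, against 10496.2, 10466.6 and 10937.7 in pU6 clone 2. Its groups did not overlap either, and its log2 fold change of -0.22 (limma adjusted p = 0.034) did not pass under 11 of 19 alternative settings. The partner core protein UQCRC1 gave -0.06, UQCR11 -0.16 and UQCRB, which binds ubiquinone, 0.11, none of which passed. Another bright probe set of UQCRB gave -0.23 and did not pass (limma adjusted p = 0.24), so its sign depended on the probe set.

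CYCS is the single gene for cytochrome c of body cells, the carrier between complexes III and IV. It had signals of 19876.1, 18846.7 and 20517.3 in D20, against 25926.9, 25641.4 and 26131.7 in pU6 clone 2. The D20 arrays lay clearly below the closely grouped pU6 clone 2 arrays, with a log2 fold change of -0.39 ± 0.07 (SE, n = 3 each, limma adjusted p = 7.6e-04). A further probe set of CYCS gave -1.07 (limma adjusted p = 3.3e-05), and another, dimmer one gave -0.43 and did not pass (limma adjusted p = 0.33). All 3 had the same sign and differed in size. RefSeq lists 45 pseudogenes named after CYCS, and signal from the gene and from near-identical copies cannot be told apart where a probe matches both.

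**Figure D2:**
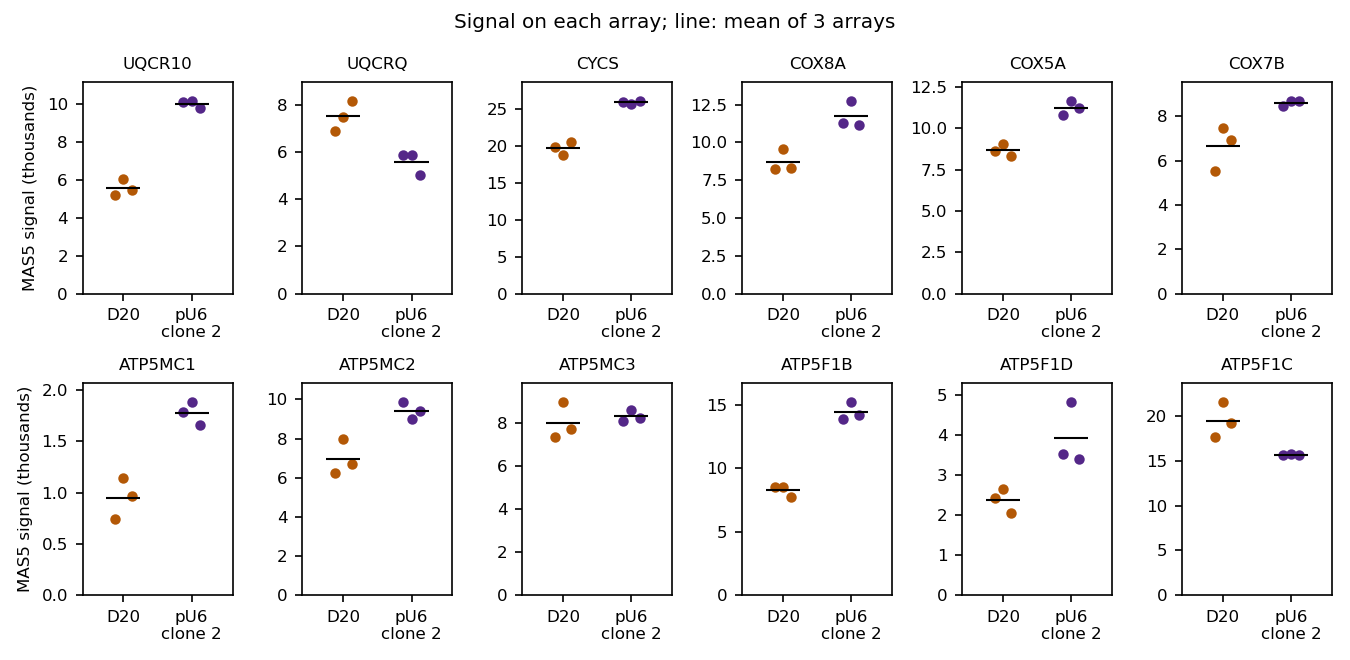
MAS5 signal on each of the 3 D20 arrays (left in each panel) and the 3 pU6 clone 2 arrays (right), with the mean as a line and each axis starting at 0. UQCRQ and ATP5F1C are higher on every D20 array, ATP5MC3 overlaps between the clones, and the other 9 genes are lower on every D20 array.

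In complex IV, 3 of the 10 tested genes fell, none rose and 7 did not pass, with a median log2 fold change of -0.15. Both the count and the sign depended on scaling: with poly-A spike-in scaling none was lower and 3 were higher, with a median of 0.06. All tested genes then had 12.6% lower, 32.4% higher and a median of 0.24, above that of complex IV. The size of the complex IV median depended on D20 array A. Without that array 3 genes were still lower, 1 was higher, and the median was -0.01. With all arrays as deposited, lower genes made up 30% and higher genes 0%, against 20.8% and 23.7% of all tested genes. Among the 553 bright genes described above the shares were 33.3% and 21.0%, so the lower share of complex IV was close to theirs. The 3 that fell are small nuclear subunits that surround the mitochondrially encoded catalytic core. COX8A, a membrane-spanning subunit, had signals of 8208.7, 9546.9 and 8295.0 in D20, against 11300.5, 12750.0 and 11156.1 in pU6 clone 2. Its groups lay apart, with a log2 fold change of -0.43 ± 0.09 (SE, n = 3 each, limma adjusted p = 0.0018).

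COX7B, also membrane-spanning, had 5548.2, 7462.2 and 6915.1 in D20, against 8458.5, 8694.3 and 8686.0 in pU6 clone 2. The D20 arrays were all lower and more scattered than the pU6 clone 2 arrays, and the log2 fold change was -0.39 (limma adjusted p = 0.010). COX5A, which sits on the matrix side, had 8621.9, 9043.4 and 8297.3 in D20, against 10790.7, 11660.9 and 11234.5 in pU6 clone 2. Again no array overlapped, with a log2 fold change of -0.38 (limma adjusted p = 0.0017).

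The 7 complex IV genes that did not pass lay between -0.18 and 0.20. COX5B, a zinc-binding matrix subunit, gave -0.18, COX6C -0.17, COX6A1 -0.14 and COX6B1, on the outer face of the inner membrane, -0.13. COX7A2 gave 0.08, COX7C 0.20 and COX4I1, the common isoform of the largest nuclear subunit, 0.16. The values of COX4I1 and COX7C come from probe sets able to match several transcript families. A further probe set of COX4I1 gave 0.24 and passed as higher in D20 (limma adjusted p = 0.020).

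In ATP synthase, 7 of the 15 tested genes fell, 1 rose and 7 did not pass, with a median log2 fold change of -0.26. With poly-A spike-in scaling 3 were lower and 1 higher, with a median of -0.04. All tested genes then had 12.6% lower, 32.4% higher and a median of 0.24. As deposited, lower genes of ATP synthase made up 46.7% and higher genes 6.67%, against 20.8% and 23.7% of all tested genes. Among the 553 bright genes described above the shares were 33.3% and 21.0%. By part of the enzyme, 2 of 5 genes of the catalytic head and central stalk fell and 1 rose. Of the 3 genes of the c ring 2 fell, of the 4 of the peripheral stalk 3 fell, and of the 3 small membrane subunits read here none passed.

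ATP5F1B encodes the beta subunit, which carries the catalytic sites. It had signals of 8538.8, 8519.5 and 7738.5 in D20, against 13915.3, 15209.9 and 14231.7 in pU6 clone 2. The groups were far apart, with a log2 fold change of -0.81 ± 0.08 (SE, n = 3 each, limma adjusted p = 4.2e-06), a fold of 0.57. ATP5F1A, for the alpha subunit that alternates with beta in the head, gave -0.18 and did not pass (limma adjusted p = 0.053), although its arrays also lay apart.

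The central stalk genes differed in direction. ATP5F1D, for the delta subunit at the foot of the stalk, had 2433.1, 2653.1 and 2035.6 in D20, against 3521.3, 4811.6 and 3402.3 in pU6 clone 2. All D20 arrays were lower, and the log2 fold change was -0.71 ± 0.14 (SE, n = 3 each, limma adjusted p = 0.0013), with -1.07 for its further probe set. ATP5F1C, for the gamma subunit that forms the shaft, had 17672.5, 21553.6 and 19222.9 in D20, against 15633.7, 15730.9 and 15678.1 in pU6 clone 2. Every D20 array was higher, with a log2 fold change of 0.31 (limma adjusted p = 0.011). The other 3 probe sets of ATP5F1C also passed as higher, at 0.33, 0.32 and 0.65, so all 4 had the same direction. All but the one at 0.65, which is far dimmer, are able to match several transcript families and may not be separate readings. ATP5F1E, for the epsilon subunit, gave -0.09 and did not pass.

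The c ring is built from 1 mature protein that ATP5MC1, ATP5MC2 and ATP5MC3 all encode, with different import sequences. ATP5MC1 had signals of 745.0, 1141.1 and 963.4 in D20, against 1783.4, 1882.0 and 1664.0 in pU6 clone 2. The groups lay apart, and the log2 fold change of -0.91 ± 0.14 (SE, n = 3 each, limma adjusted p = 2.8e-04), a fold of 0.53, was the lowest of the 33 genes. ATP5MC2 had 6247.4, 7961.7 and 6675.0 in D20, against 9852.3, 8985.8 and 9385.4 in pU6 clone 2. It fell with no overlap, by 0.44 on the log2 scale (limma adjusted p = 0.0028). ATP5MC3 had 7368.8, 8972.0 and 7728.8 in D20, against 8084.3, 8590.2 and 8261.7 in pU6 clone 2. Its groups overlapped, its log2 fold change was -0.06 ± 0.09 (SE, n = 3 each, limma adjusted p = 0.67), and its further probe sets gave -0.10 and 0.04. The difference between the 3 genes was not itself tested.

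In the peripheral stalk, ATP5PB, for subunit b, had 14859.2, 14662.2 and 14938.1 in D20, against 19578.3, 17894.4 and 19005.6 in pU6 clone 2. The D20 arrays lay close together below the pU6 clone 2 arrays, with a log2 fold change of -0.34 (limma adjusted p = 0.0022). ATP5PD, for subunit d, fell by 0.28 on the log2 scale (limma adjusted p = 0.0093), and ATP5PO, for the subunit that links the stalk to the head, fell by 0.26 (limma adjusted p = 0.024). ATP5PO did not pass under 8 of 19 alternative settings, among them leaving out D20 array C or any 1 of the pU6 clone 2 arrays. ATP5PF, for coupling factor 6, gave -0.19 and did not pass. Dim further probe sets of ATP5PB and ATP5PD gave 0.15 and 0.20 and did not pass.

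The values of the small membrane subunits e, f and g depended on the probe set. ATP5ME, for subunit e, gave -0.18 and ATP5MG, for subunit g, 0.03, both from probe sets able to match several transcript families. Another probe set of ATP5ME gave -0.44 (limma adjusted p = 0.0022) and another of ATP5MG gave -0.33 (limma adjusted p = 0.036), both passing as lower. ATP5MF, for subunit f, was read only from a dim probe set, with mean signals of 51.2 in D20 and 57.4 in pU6 clone 2, and its log2 fold change of -0.29 had a standard error of 0.58. A brighter probe set that names ATP5MF also names ARMC2-AS1 and was not used.

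Of the 16 genes that passed, 10 had further tested probe sets, 14 in all. Of these 5 passed in the same direction, 9 did not pass and none passed in the other direction. The 5 that passed belonged to ATP5F1C, which rose, and to CYCS and ATP5F1D, which fell. No further probe set of the other lower genes passed. RefSeq lists 166 pseudogenes named after 27 of the 35 genes, and 5 of the 33 values come from probe sets able to match several families and 15 from ones able to match several transcripts.

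All 3 complexes had a median below 0 as deposited, and each held genes that passed and genes that did not. For complexes III and IV the median turned to above 0 with poly-A spike-in scaling, where that of all tested genes was 0.24. The 553 bright genes described above also had a median below 0 as deposited, at -0.07. No test was made between the complexes. ATP synthase had the lowest median and 13 of its 15 genes below 0, against 7 of 10 in complex IV and 5 of 7 in complex III. Complex III spanned log2 fold changes of -0.85 to 0.43, ATP synthase -0.91 to 0.31 and complex IV the narrower range of -0.43 to 0.20.

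The D20 arrays did not carry these medians equally. Set against the pU6 clone 2 mean, the median of ATP synthase was -0.30, -0.19 and -0.26 on D20 arrays A, B and C, against -0.03, 0.03 and -0.00 on pU6 clone 2 arrays A, B and C. For complex III it was -0.24, -0.02 and -0.16 in D20, against -0.01, 0.07 and -0.06 in pU6 clone 2. For complex IV it was -0.38, 0.01 and -0.09 in D20, against -0.03, 0.06 and -0.01 in pU6 clone 2. All 3 D20 arrays were below all 3 control arrays for ATP synthase, while D20 array B overlapped the control arrays for complexes III and IV.

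D20 array A was the lowest of the D20 arrays for 8 of 10 complex IV genes, 4 of 7 complex III genes and 9 of 15 ATP synthase genes, against 31.9% of all tested genes. D20 array B was the highest of the D20 arrays for 9 complex IV genes, 5 complex III genes and 8 ATP synthase genes, against 39.2% of all tested genes. Without D20 array A the median of complex IV was -0.01, that of complex III -0.09 and that of ATP synthase -0.20, and 4 of the 33 genes passed as higher in place of 2.

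**Figure D3:**
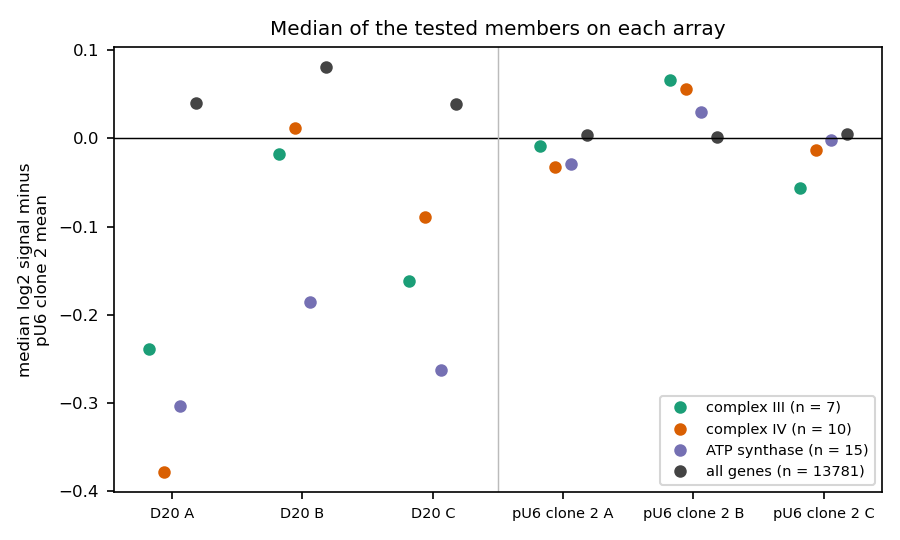
Median log2 signal of the tested genes of each complex on each array, minus the mean of the 3 pU6 clone 2 arrays, with all 13781 tested genes in black. ATP synthase lies at -0.30, -0.19 and -0.26 on the D20 arrays, while complex IV lies at -0.38 on D20 array A and at 0.01 on D20 array B.

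How many genes were called lower depended on how the arrays were put on 1 scale. As deposited, all arrays share a trimmed mean signal of 500. Centring each array on its median set the median difference over all tested genes at -0.09 in place of 0.04, and scaling on the poly-A spike-in controls, RNAs added to each sample before labelling, set it at 0.24. With poly-A scaling 12.6% of all tested genes were lower and 32.4% higher in D20, so that 71.9% of the called genes were higher, against 53.2% as deposited. With median centring 26.5% were lower and 18.7% higher, so that 41.3% of the called genes were higher.

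Of the 33 genes, 20 were lower and 1 higher with median centring, and 4 were lower and 6 higher with poly-A scaling. With poly-A scaling the medians of complex III and complex IV were 0.06 and 0.06, above 0, and that of ATP synthase was -0.04. Under each of the 5 scalings, the medians of all 3 complexes lay below the median of all tested genes. Median centring and scaling on either set of controls move all genes of an array together, so they could hardly change this gap. Only quantile normalization could. That gap was -0.20 for complex III, -0.19 for complex IV and -0.30 for ATP synthase as deposited, and -0.19, -0.18 and -0.28 with poly-A scaling. It was smallest with quantile normalization, at -0.05, -0.08 and -0.19. Of the 14 lower genes, CYC1, UQCRC2, CYCS, COX8A, COX7B, COX5A, ATP5MC2, ATP5PB, ATP5PD and ATP5PO did not pass with poly-A scaling, which left UQCR10, ATP5MC1, ATP5F1B and ATP5F1D. UQCRQ did not pass as higher with hybridisation control scaling, and ATP5F1C with that or with median centring. ATP5MC1, ATP5F1B and ATP5F1D passed as lower under every alternative setting in which they were tested, and none of the other 13 genes that passed did.

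**Figure D4:**
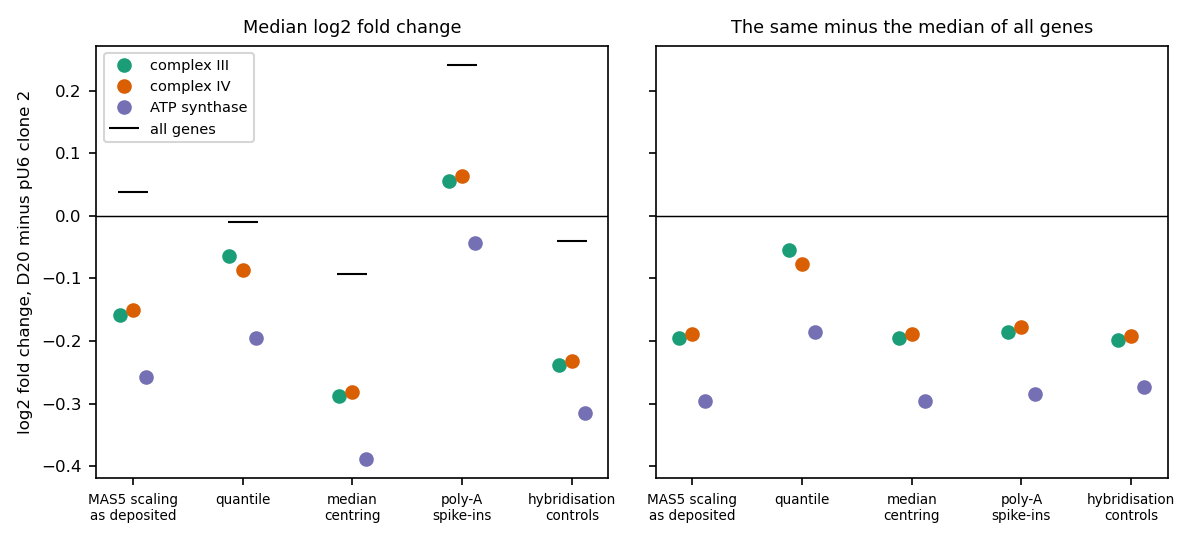
Median log2 fold change, D20 minus pU6 clone 2, of each complex under 5 ways of scaling the arrays, as such (left, with all tested genes as black bars) and minus the median of all tested genes (right). With poly-A scaling complexes III and IV sit above 0 at 0.06 while all genes sit at 0.24, and every point on the right is below 0. Of the alternatives, only quantile normalization could move the points on the right by much.

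Assembly factors of the same complexes spanned a wider range than the 33 subunit genes. Most of them were dimmer than the median subunit signal of 11441. Differences past 2-fold were found in 19.1% of all tested genes, against 5.61% of the 553 bright genes. The part of signal level in the wider range was not tested. Of 8 tested assembly factors of complex III, 2 fell and 1 rose, and the median of the list was -0.21. These are 25% lower and 12.5% higher, not far from the 20.8% and 23.7% of all tested genes. UQCC3, which helps to assemble cytochrome b, had signals of 389.7, 467.9 and 349.5 in D20, against 846.2, 947.2 and 870.7 in pU6 clone 2, a log2 fold change of -1.12 (limma adjusted p = 7.2e-05). LYRM7, the chaperone that holds the Rieske protein before its insertion, had 813.3, 729.2 and 814.1 in D20, against 1618.6, 1391.1 and 1847.0 in pU6 clone 2, a log2 fold change of -1.02 (limma adjusted p = 3.9e-05). Neither overlapped between the clones. TTC19, which acts late in the making of complex III, was higher, at 0.28, and did not pass under 6 of 19 alternative settings.

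Of 30 tested assembly factors of complex IV, 13 fell and 6 rose, with a median of -0.18. Lower genes made up 43.3% and higher genes 20%, against 20.8% and 23.7% of all tested genes. SURF1, which acts early in the joining of the catalytic core, had 1762.2, 1211.5 and 1185.0 in D20, against 4160.6, 3299.9 and 3688.0 in pU6 clone 2, a log2 fold change of -1.43 (limma adjusted p = 6.6e-06). COX20, a chaperone of the mitochondrially encoded subunit MT-CO2, had 713.6, 785.8 and 963.5 in D20, against 1905.8, 1627.6 and 2547.7 in pU6 clone 2, a log2 fold change of -1.27. Every D20 array was below every pU6 clone 2 array for both genes. SCO2 and COA6, which serve the delivery of copper to the enzyme, fell by 0.93 and 0.89 on the log2 scale. COX19, another copper-related factor, rose, at 0.79, and CEP89 rose, at 1.15.

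Of 9 tested genes for assembly and inhibition of ATP synthase, 3 fell and 1 rose, with a median of -0.23. These are 33.3% lower and 11.1% higher, against 20.8% and 23.7% of all tested genes. FMC1, known from yeast as a factor in assembly of the head, fell by 0.69 on the log2 scale, ATP23 fell by 0.58 and OXA1L, which inserts proteins into the inner membrane, fell by 0.32. ATPAF2, a chaperone of the alpha subunit, rose, at 0.61 (limma adjusted p = 0.021). It did not pass under 8 of 19 alternative settings, among them leaving out D20 array A, D20 array B or pU6 clone 2 array A, and gave -0.01 when all its probe sets were averaged. ATP5IF1, the inhibitor protein of ATP synthase, gave -0.23 and did not pass.

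**Figure D5:**
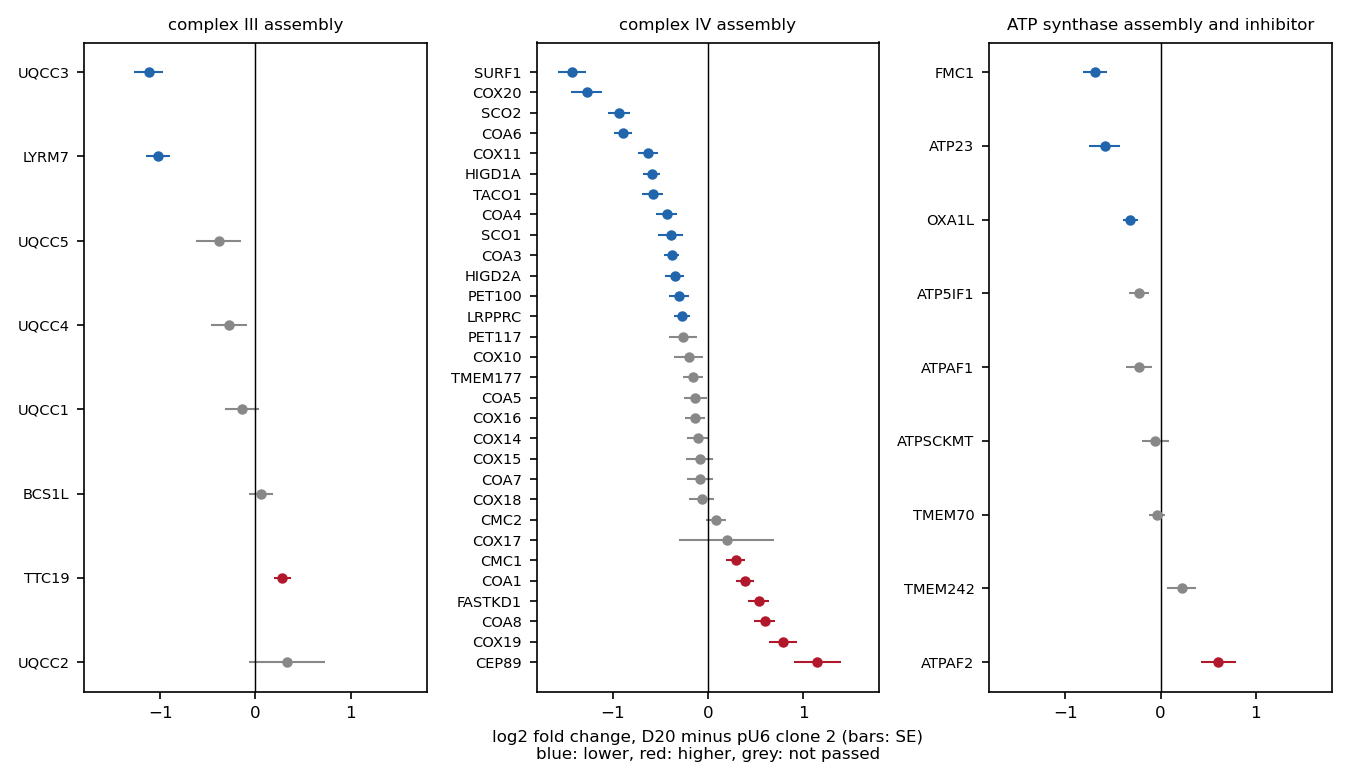
Log2 fold change, D20 minus pU6 clone 2, of the tested assembly factors of complex III, complex IV and ATP synthase (points: limma estimate; bars: standard error; blue lower in D20, red higher, grey not passed). SURF1 at -1.43, COX20 at -1.27, UQCC3 at -1.12 and LYRM7 at -1.02 lie below all 33 subunit genes.

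Of 10 further tested subunits and tissue isoforms 2 fell and none rose, with a median of -0.07. The lower share of 20% is close to the 20.8% of all tested genes. ATP5MK and ATP5MJ, small proteins bound to the membrane part of ATP synthase, fell by 0.48 and 0.41 on the log2 scale, and another probe set of ATP5MJ gave 0.19. ATP5MJ did not pass under 6 of 19 alternative settings, among them leaving out pU6 clone 2 array B. COX4I2, the isoform known to take the place of COX4I1 under low oxygen, gave -0.02, and COXFA4, a subunit once counted to complex I under the name NDUFA4, gave -0.20, neither passing.

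Probe sets for 4 subunits encoded by mitochondrial DNA were listed. MT-CO3 had signals of 2660.4, 1829.4 and 2271.0 in D20, against 5421.2, 4995.0 and 5157.1 in pU6 clone 2, with no overlap and a log2 fold change of -1.21 (limma adjusted p = 5.3e-06), read from a probe set able to match several families. MT-CO1 had 52301.8, 73678.0 and 69357.9 in D20, against 51755.3, 52326.6 and 52965.4 in pU6 clone 2. D20 array A overlapped the pU6 clone 2 arrays, and the log2 fold change of 0.30 passed narrowly (limma adjusted p = 0.047) and did not pass under 11 of the 18 alternative settings in which it was tested. MT-CO2 gave 0.21 and MT-ATP6 0.27, neither passing. Only MT-CO3 lay below 0, and its probe set was far dimmer than those of the other mitochondrial genes. Its mean signals were 2253.6 in D20 and 5191.1 in pU6 clone 2, against 50761.0 and 41675.3 for MT-ATP6. The part of the probe set in the difference of MT-CO3 was not tested.

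Of 22 tested regulators of respiratory chain genes 8 fell and 2 rose, with a median of -0.13. These are 36.4% lower and 9.09% higher, against 20.8% and 23.7% of all tested genes. SP1 had signals of 789.3, 866.5 and 853.2 in D20, against 2712.5, 2173.9 and 2747.9 in pU6 clone 2, a log2 fold change of -1.58 (limma adjusted p = 4.0e-07). ESRRA, the nuclear receptor ERR-alpha, fell by 0.93 on the log2 scale, and its relative ESRRG fell by 2.66. Both are known to activate genes of the respiratory chain. POLRMT, the RNA polymerase of mitochondria, fell by 0.74 and TFB1M, a methyltransferase of mitochondrial ribosomal RNA, by 0.73. HIF1A, a subunit of the hypoxia-inducible factor, rose, at 0.99. Of the factors whose motifs were searched, NRF1 gave -0.28 and GABPA 0.09 and neither passed, and YY1 was lower, at -0.37 (limma adjusted p = 0.0038).

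Of 13 tested genes often used as a measure of mitochondrial mass 6 fell and 1 rose, with a median of -0.22. The lower share was 46.2% and the higher share 7.69%, against 20.8% and 23.7% of all tested genes. TOMM22 and TOMM20, subunits of the import channel of the outer membrane, fell by 1.15 and 0.60 on the log2 scale. CS, citrate synthase, had 7350.0, 6478.6 and 5133.0 in D20, against 10038.8, 9654.4 and 9799.7 in pU6 clone 2, a log2 fold change of -0.65 (limma adjusted p = 5.3e-04). CHCHD3 fell by 0.37, TUFM by 0.35 and PHB2 by 0.28, and IMMT, a core protein of the cristae, was higher, at 0.24. The 6 that did not pass were VDAC1 at 0.03, HSPD1 at 0.01, HSPA9 at -0.13, TIMM44 at -0.13, PHB1 at -0.18 and TOMM40 at -0.22. CHCHD3 gave -0.16 and did not pass with its probe sets averaged, and CHCHD3, TUFM and PHB2 did not pass with poly-A scaling. TUFM also did not pass without D20 array A, D20 array C, pU6 clone 2 array B or pU6 clone 2 array C. The share of mitochondrial mass in the subunit differences was not tested.

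Genes beside some of the subunit genes on the chromosome also differed. The 20 tested genes nearest to COX8A on chromosome 11 had a median log2 fold change of -0.85, with 12 lower and 2 higher in D20, at percentile 0.59 of such medians over all tested genes. The 20 nearest to ATP5MC2 on chromosome 12 had a median of -0.52, with 11 lower and none higher, at percentile 3.46. Those nearest to ATP5F1B, also on chromosome 12, had -0.30, with 9 lower and 2 higher. For other genes with large differences the neighbour medians were 0.11 for ATP5MC1, -0.02 for UQCR10, 0.04 for ATP5F1D and 0.20 for ATP5F1C. ATP5PB, ATP5PO and CYCS fell while their neighbour medians were above 0, at 0.41, 0.37 and 0.22. Over all 33 genes 12 had a neighbour median below 0, against 40.8% of all tested genes, and 2.5% of all such medians lay below -0.58. The part of the neighbourhood in the fall of COX8A and ATP5MC2 was not tested.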

How the data were processed

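The series holds total RNA of 3 D20 and 3 pU6 clone 2 samples of Hep3B cells on 6 one-colour Affymetrix HG-U133 Plus 2.0 arrays. The deposited values are linear signal intensity per probe set, made by the authors with MAS5, per the submitters' processing notes. Neither its version nor its scaling target is stated in the sources used here. Probe sets were named from the platform table that GEO holds, with symbols brought up to date through Entrez numbers in RefSeq GRCh38.p14: 41091 had 1 symbol, 1801 several and 11721 were unlisted, and only the first kind was used. After 62 control probe sets and the dimmest 40% were left out, 32768 were tested, the lowest at a mean signal of 43.2. Limma 3.58.1 (R 4.3.3) was run on log2(signal + 16), with a variance trend, over all 6 arrays, two-sided, with Benjamini-Hochberg adjustment at 0.05. Fold changes are on that scale, which understates those of dim probe sets, and the number of arrays limits the precision. A gene is its brightest probe set naming only that gene. The fit was tested on simulated data.

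The main fit did not pair the samples by array letter, because the labels do not tie the letters to a shared culture or day. Deviations from the clone means correlated at -0.02, 0.05 and 0.01 for A, B and C, which cannot show that the samples were unpaired. Array B had the highest median of each complex in both clones. With the letter as a block, 22.2% of all tested genes were lower and 24.8% higher in D20, against 20.8% and 23.7% without it. Values by array are given for up to 6 passing genes of each complex with the largest change and arrays apart, for genes that rose, CYCS and the c subunit genes, and up to 6 passing genes of each pathway list are named. Other genes of the lists that did not pass, and YY1, ALB and AFP, were named for their role after their values were seen. COL1A1, LAPTM5 and LUM were named for the size of their differences, also after their values were seen. The genes, lists and tests were chosen with earlier results of these data known. Alternatives covered scaling, offset, filter, probe set choice, variance trend, a replicate block and each array left out.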

Additional observations from a re-analysis of the deposited data

How the results depend on the processing

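Counts of the 33 subunit genes called lower (14) and higher (2) were 4 and 6 with poly-A spike-in scaling and 7 and 0 without a variance trend. They were 20 and 1 with median centring and 12 and 0 with hybridisation control scaling. Without probe sets ending in _s_at or _x_at, 6 of only 27 tested genes were lower and 2 higher. COX8A, ATP5F1D, ATP5MC1 and ATP5MC2, lower as deposited, were among those not tested. Lower and higher shares of all tested genes were 12.6% and 32.4% with poly-A scaling and 15.7% and 19.2% without the trend. These shares were 26.5% and 18.7% with median centring, 19.3% and 17.1% with hybridisation controls and 19.0% and 22.1% without those probe sets. Complex III (3 lower, 1 higher) gave 1 and 2 with poly-A scaling, 1 and 0 without the trend or with hybridisation control scaling, and 1 lower with quantile normalization, without the filter on dim probe sets, without _s_at and _x_at probe sets, without pU6 clone 2 array B or without array C. Complex IV (3 lower, 0 higher) gave 0 and 3 with poly-A scaling and 1 lower of 9 tested without _s_at and _x_at probe sets. It gave 1 higher with quantile normalization, with probe sets other than _x_at taken first and without D20 array A. ATP synthase (7 lower, 1 higher) gave 3 lower with poly-A scaling and without the trend. Without _s_at and _x_at probe sets it gave 3 lower of 10 tested. With median centring 11 were lower, and 0 were higher with median centring, hybridisation control scaling or no trend. With each array left out in turn, 11 to 15 genes were lower and 2 to 4 higher; the ranges were 1 to 3 and 1 to 2 for complex III, 3 to 4 and 0 to 1 for complex IV, and 6 to 8 and 1 to 1 for ATP synthase, the higher counts coming without D20 array A. With the array letter as a replicate block, 16 were lower and 3 higher, and complex IV had 1 higher.

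Medians of complexes III and IV changed sign with poly-A scaling, to 0.0555 and 0.0630, where the median of all tested genes was 0.24. Without _s_at and _x_at probe sets ATP5PB gave 0.15, ATP5PD 0.20, ATP5MJ 0.19 and GFER 0.36, ATP5MG gave -0.33 there and with other probe sets taken before _x_at, and the log2 fold change of ATPAF2 was -0.0081 with all probe sets averaged. The cause of these changes was not tested beyond the switch of probe set or scale. Signals near the filter, such as that of ATP5MF, limit what could be detected.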

Other observations

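Among 7 tested partners of cytochrome c, 2 fell and none rose in D20, with a median log2 fold change of -0.01. The lower share of 28.6% is not far from the 20.8% of all tested genes. SUOX, the sulfite oxidase that passes electrons to cytochrome c in the space between the membranes, fell by 1.03 on the log2 scale (limma adjusted p = 0.0012). GFER, which oxidises imported proteins and is itself reoxidised by cytochrome c, fell by 0.95 (limma adjusted p = 0.015), but did not pass without D20 array A, D20 array C or pU6 clone 2 array B. HCCS, the enzyme that attaches haem to cytochrome c, gave -0.01, and APAF1 and CASP9, which meet cytochrome c in the cytosol during apoptosis, gave 0.50 and 0.02, none of which passed.

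Of 7 tested carriers that supply ATP synthase 1 fell and 2 rose, with a median of 0.07. These are 14.3% lower and 28.6% higher, near the 20.8% and 23.7% of all tested genes. SLC25A3, the phosphate carrier, fell by 0.40 on the log2 scale (limma adjusted p = 0.0021), whereas SLC25A4, the ADP and ATP exchanger of muscle and heart, rose, at 0.37 (limma adjusted p = 0.029). SLC25A5, the exchanger of dividing cells, gave 0.07 and did not pass. VDAC2, a pore of the outer membrane, rose, at 0.22 (limma adjusted p = 0.038). SLC25A4 and VDAC2 did not pass in 9 alternative settings each, which include leaving out D20 array B, D20 array C or any 1 of the pU6 clone 2 arrays.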
